A study of Mus musculus with 12 samples.

Results

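The insulin-like growth factor 1 (IGF1) axis was described in skeletal muscle fibroblasts through 9 genes: the ligand *Igf1*, its receptor *Igf1r*, the receptor adaptor *Irs1*, and the binding proteins *Igfbp2*, *Igfbp3*, *Igfbp4*, *Igfbp5*, *Igfbp6* and *Igfbp7*. These genes were taken by symbol, and all 9 were found, each once, among the 25133 genes listed in all 3 deposited tables. The cells were primary fibroblasts from hindlimb muscle of 3-day-old wild-type C57 BL/10 mice, used at passage 2 after enrichment by adherence. All plates were held in medium with charcoal-stripped serum, which lacks endogenous steroids, and received 1 µM aldosterone, 1 µM spironolactone or the DMSO vehicle for 48 hours. Aldosterone is an agonist of the mineralocorticoid receptor (MR) and also binds the glucocorticoid receptor at high doses, and spironolactone is an MR antagonist. There were 4 libraries per treatment and 12 in all, from 2 mice with 2 replicate plates for each mouse and treatment. In the labels every library has 2 numbers, one for the sample and one for the biological replicate, each 1 or 2. Which of the 2 numbers names the mouse is not given, so p-values on treatment only measure the spread between libraries of 2 mice, which may be partly technical. With the sample number in the fit, the difference between sample numbers is taken out of that spread. Within 1 sample number, the spread is only that between its 2 libraries a group. If the sample number is the mouse, p-values of these latter fits do not measure the spread between mice.

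IGF1 binds its receptor tyrosine kinase on the cell surface, and insulin receptor substrates such as IRS1 carry the signal to phosphoinositide 3-kinase and Akt, while Shc and Ras carry it to the ERK kinases. IGF binding proteins hold IGF1 and IGF2 outside the cell and set how much reaches the receptor, and proteases such as pregnancy-associated plasma protein A cleave them to release the ligand. In skeletal muscle IGF1 is known for driving growth and regeneration of myofibers, and fibroblasts are a local source of it.

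The libraries held between 19136812 and 30219093 reads on genes. The steroid response was checked with *Fkbp5*, *Tsc22d3* and *Per1*, which rose in aldosterone- versus vehicle-treated fibroblasts by 4.26, 2.69 and 1.83 on the log2 scale. Fibroblast markers were high in all libraries, with summed levels of 38877 to 47636 counts scaled to library size (CPM) in the vehicle and aldosterone groups. Among the markers of other cells, *Ptprc* and *Myog* had at most 3 reads in every library. *Pax7*, *Myf5*, *Adgre1*, *Itgam* and *C1qa* were not listed in all tables. Other markers on the lists were detected. With vehicle, in the comparison with spironolactone, *Lyz2* had a mean of 166 normalized counts, *Csf1r* 54.5, *Des* 99.1 and the pericyte marker *Cspg4* 9200. Some marker lists differed between treatments. The 5 endothelial markers summed to 28.9 to 32.0 CPM with aldosterone and 19.9 to 22.6 CPM with vehicle, with *Kdr* rising by 1.88. The low markers *Pecam1* and *Cdh5* did not pass, with means of 2.85 and 15.2 normalized counts with aldosterone and 6.57 and 9.50 with vehicle. Most of the endothelial sum with vehicle is *Tek*, with a mean of 447 normalized counts in the comparison with spironolactone, where *Kdr* had 45.4 and *Vwf* 9.65. The adipocyte markers in all tables, *Adipoq* and *Plin1*, summed to 4.58 to 8.30 CPM with aldosterone and 1.23 to 3.72 CPM with vehicle. The 7 fibroblast markers summed to 38877 to 43077 CPM and 43634 to 47636 CPM. In the fit with the sample number 5 of them were lower, against 8.02% of all genes, and 2 higher, against 8.68%. The fibroblast sum is mostly *Col1a1*, *Col1a2* and *Vim*, with vehicle means of 574091, 375485 and 136765 normalized counts in the comparison with spironolactone. *Pdgfra*, with 3169 there, went the other way, from a mean of 132 CPM with vehicle to 249 CPM with aldosterone. The sums overlapped for the 3 glial markers (12.8 to 18.5 CPM and 9.75 to 13.0 CPM). They also overlapped for macrophages (8.74 to 10.2 and 8.48 to 12.3), muscle cells (2.79 to 5.19 and 3.13 to 6.35) and pericytes (328 to 517 and 415 to 563). Of single genes, 1 of 3 glial, 1 of 3 adipocyte, 1 of 5 endothelial and 2 of 7 fibroblast markers rose and 0 fell. These stand against 5.68% of all genes that rose at an adjusted p of 0.05 or less. In the fit with the sample number 1 of 3 glial, 1 of 3 adipocyte and 2 of 5 endothelial markers were higher, against 8.68%. In that fit 2 of 4 pericyte and smooth muscle markers were lower, against 8.02%. No macrophage or muscle marker passed in either fit. The part of these markers in the results was not tested, and in bulk RNA fewer cells of a type and less RNA per cell cannot be told apart.

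In vehicle-treated fibroblasts the transcripts of the binding proteins other than *Igfbp3* were far more abundant than those of the ligand and its receptor. Compared per kilobase of gene length, *Igfbp2* had 402 ± 63.9 CPM per kilobase (SD, n = 4 here and for the next levels) and *Igfbp7* had 387 ± 55.1, with overlapping libraries. *Igfbp4* followed at 272 ± 15.8, below every library of *Igfbp7*. *Igfbp5* at 135 ± 58.0 and *Igfbp6* at 132 ± 8.73 overlapped with each other. The other 4 genes were more than 10 times lower, with *Irs1* at 12.4 ± 2.78, *Igfbp3* at 11.4 ± 1.23 and *Igf1r* at 10.8 ± 0.419, whose libraries overlapped with their neighbours. *Igf1* had the lowest level of the 9 genes, 5.57 ± 1.22 CPM per kilobase, without overlap with *Igf1r*. *Igfbp2* was thus 72.1 times the level of *Igf1* per kilobase of gene length, and *Igfbp3* 2.06 times. The lengths of the transcripts made in these cells were not used.

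**Figure D1:**
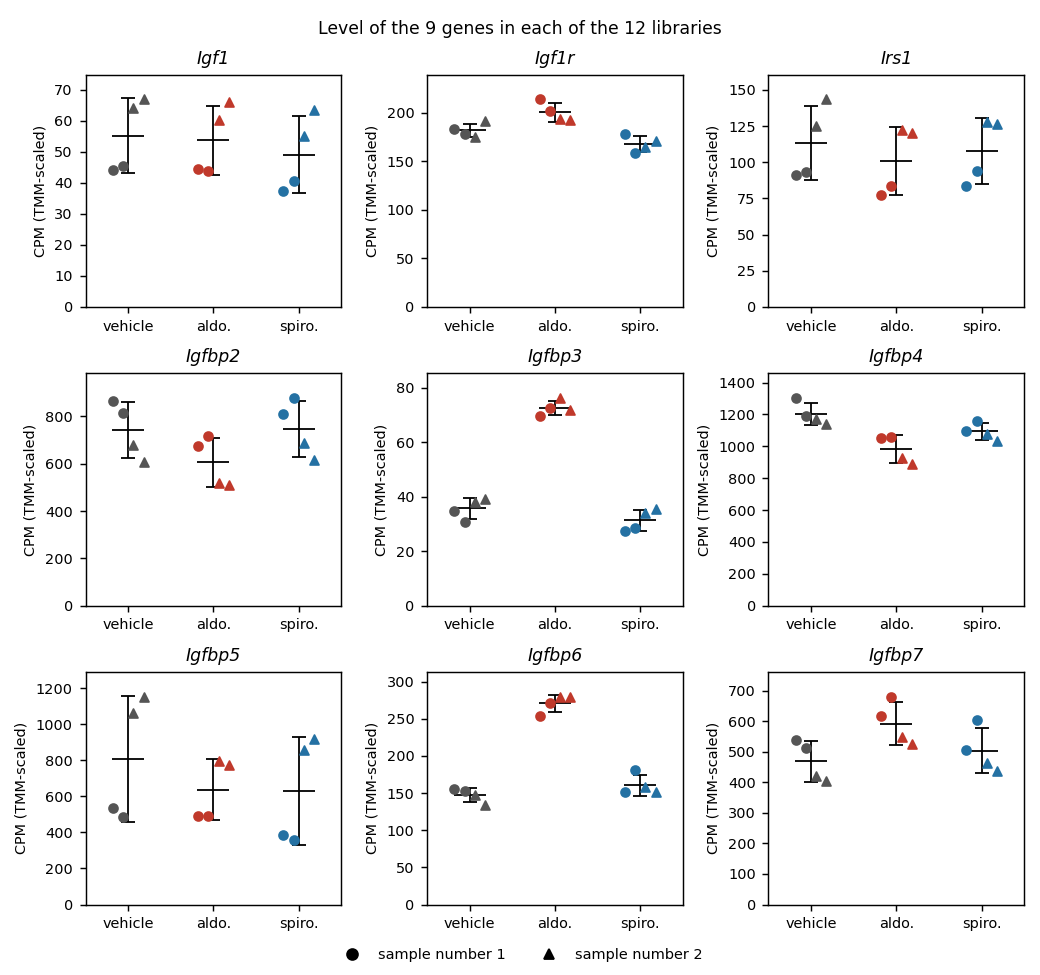
Levels of the 9 genes as TMM-scaled CPM (y axis, starting at 0) in the 4 libraries of each treatment (x axis). Points are libraries, circles for sample number 1 and triangles for sample number 2, and the bars give the mean and SD of 4 libraries. For *Igfbp3* and *Igfbp6* the 4 aldosterone libraries lie above all others, while for *Igf1*, *Irs1* and *Igfbp5* the circles lie below the triangles in every treatment.

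The question of the first comparison was whether the MR agonist changes gene expression in these fibroblasts. In aldosterone- versus vehicle-treated fibroblasts *Igfbp3*, *Igfbp6* and *Igfbp7* rose and *Igfbp4* fell. A gene was called at an adjusted p of 0.05 or less. Thus 4 of the 9 genes were called, against 10.4% of the 27319 genes in the table. The 3 that rose stand against 5.68% of all genes called higher and the 1 that fell against 4.74% called lower. *Igfbp3* alone of the 9 also reached the fold threshold, a log2 fold change of 1 in size, and 2.06% of all genes passed both. The other 5 genes, among them *Igf1*, did not pass in this fit. The median log2 fold change was -0.04 for the 9 genes and -0.0064 for all genes of the table. With the sample number added to the fit, 8 of the 9 genes were called, all but *Igf1*, against 16.7% of all genes. Of these, 4 were higher, against 8.68%, and 4 lower, against 8.02%. The shares of all genes include those with few reads. When only genes with a mean of at least 10 were tested, 3033 of 15245 were called, and 4753 with the sample number. The members called were then again 4 and 8. Calls with the sample number rest on the spread left once the difference between sample numbers is taken out.

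*Igfbp3* encodes the main carrier of IGF1 in serum, which is also made by fibroblasts. Library values here and for the next genes are in 1 order, the 2 of sample number 1 and then the 2 of sample number 2. The *Igfbp3* level was 35.0, 30.8, 38.2 and 39.3 CPM with vehicle and 69.7, 72.5, 76.2 and 72.0 CPM with aldosterone. The groups were thus well apart, and the spread within the aldosterone group was small. Its log2 fold change was 1.02 (SE 0.074, adjusted p = 7.34e-08), a 2.03-fold difference. This value lies just above the fold threshold. It was 0.99 without aldosterone replicate 1 of sample number 2 and 0.95 without vehicle replicate 2 of sample number 1, and adjusted p was at most 8.92e-07 without any of the 8 libraries in turn. With the sample number in the fit it was also under 1 without replicate 2 of sample number 1 of either group (0.99 and 0.96). Within sample number 1 the difference was 1.11 and within sample number 2 it was 0.92.

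*Igfbp6* encodes a binding protein that prefers IGF2. Its level was 155, 153, 147 and 134 CPM with vehicle and 254, 271, 279 and 279 CPM with aldosterone. Again no library of 1 group reached the other group. It rose by 0.87 on the log2 scale (SE 0.059, adjusted p = 3.49e-08), a 1.83-fold difference that is under the fold threshold. Per kilobase, *Igfbp6* reached 243 ± 10.5 CPM with aldosterone (SD, n = 4), against 23.2 ± 0.855 for *Igfbp3*.

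*Igfbp7*, whose product binds IGFs weakly and is found in matrix and vessel walls, had 539, 511, 420 and 403 CPM with vehicle and 616, 679, 547 and 524 CPM with aldosterone. The groups overlapped, because the libraries of sample number 1 were above those of sample number 2 in both groups, and within each sample number the aldosterone libraries were higher. The log2 fold change was 0.34 (SE 0.097, adjusted p = 0.0347). This call was lost without either aldosterone library of sample number 1 or either vehicle library of sample number 2 (adjusted p 0.0855, 0.124, 0.115 and 0.113). It held in all 8 cases with the sample number in the fit (adjusted p at most 1.53e-05). Reads of *Igfbp7* may include those of overlapping genes on the other strand, such as *Polr2b*, since the sources used here do not state whether reads were counted by strand.

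*Igfbp4*, a binding protein that inhibits IGF action and is cleaved by pregnancy-associated plasma protein A, was the only member that fell in this fit. Its level was 1302, 1189, 1170 and 1143 CPM with vehicle and 1055, 1057, 929 and 887 CPM with aldosterone, without overlap. It fell by 0.30 on the log2 scale (SE 0.072, adjusted p = 0.0121), and the call held without any of the 8 libraries in turn (adjusted p 0.00808 to 0.0454). Of the 9 genes, 3 had all aldosterone libraries above all vehicle libraries, against 7.55% of all genes, and *Igfbp4* had all below, against 6.9%.

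*Igfbp2*, a binding protein secreted by many mesenchymal cells, did not pass over all 8 libraries on treatment only, and passed with the sample number in the fit. Its level was 864, 814, 680 and 608 CPM with vehicle and 675, 716, 520 and 512 CPM with aldosterone. Each aldosterone library was below both vehicle libraries of its own sample number, and the groups overlapped across sample numbers. The log2 fold change was -0.30 (SE 0.118, adjusted p = 0.143), and in that fit it passed when vehicle replicate 2 of sample number 2 was left out (0.0455). It also passed within sample number 1 (-0.27, adjusted p = 0.00105) and within sample number 2 (-0.33, adjusted p = 0.00309), each with 2 libraries a group. The adjusted p was 1.85e-06 with the sample number in the fit, where it held without any of the 8 libraries in turn (at most 5.42e-05).

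The receptor *Igf1r* had 183, 178, 176 and 191 CPM with vehicle and 214, 202, 193 and 193 CPM with aldosterone. The aldosterone libraries were all higher, by a small margin in sample number 2. Its log2 fold change was 0.13 (SE 0.055, adjusted p = 0.157, and 0.0287 with the sample number in the fit). The latter call was lost without 6 of the 8 libraries in turn (adjusted p 0.0573 to 0.141) and held without aldosterone or vehicle replicate 2 of sample number 2 (0.0230 and 0.00407). The adaptor *Irs1* had 91.2, 93.1, 125 and 143 CPM with vehicle and 77.2, 83.7, 122 and 121 CPM with aldosterone, a log2 fold change of -0.18 (SE 0.152, adjusted p = 0.592, and 0.00718 with the sample number). *Irs1* passed in the latter fit without any of the 8 libraries in turn (adjusted p 0.00211 to 0.0380).

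The ligand *Igf1* had 44.1, 45.4, 64.1 and 66.9 CPM with vehicle and 44.5, 43.9, 60.2 and 66.1 CPM with aldosterone. The libraries of the same sample number were close to each other across the treatments. Aldosterone and vehicle differed by -0.04 on the log2 scale (SE 0.143, adjusted p = 0.920) with a 95% interval of -0.34 to 0.26, and of -0.14 to 0.06 with the sample number in the fit. An antisense gene, *Igf1os*, overlaps *Igf1*, and its reads cannot be told apart without strand.

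**Figure D2:**
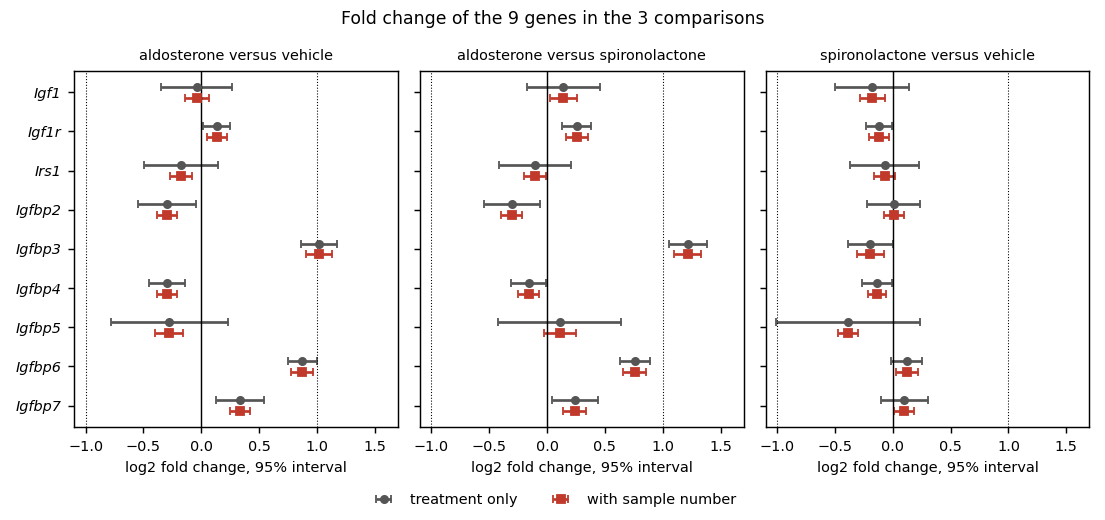
Log2 fold change (x axis) of the 9 genes (y axis) in the 3 comparisons, with 95% intervals from limma for the fit on treatment only (grey circles) and with the sample number added (red squares). Dotted lines mark a log2 fold change of 1 in either direction. *Igfbp3* and *Igfbp6* lie to the right in both comparisons with aldosterone, and the intervals of *Igf1*, *Irs1* and *Igfbp5* become narrower with the sample number.

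The sequence upstream of the transcription start was read for all 9 genes from RefSeq (GRCm38.p6), as 250 bases per window and 10 windows, since *Igfbp2* has 2. The palindrome bound by steroid receptor dimers, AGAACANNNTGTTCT, was in 0 of the 10 windows and in 0.00913% of the 32851 windows of all genes. A lone arm of it, AGAACA on either strand, was in 1 of the 10 windows and in 16.1% of all windows. A TATA box, searched as TATAAA or TATATA on the gene strand, was in 2 of the 10 windows, those of *Igfbp3* and *Igfbp4*, and in 11.5% of all windows. The windows printed are those of *Igfbp3* and *Igfbp6*, which rose most, of *Igfbp4*, which fell, and the first of *Igfbp2*, which holds the arm. Capitals mark a TATA box or the arm, and the last base lies just before the start.
Igfbp3, chr11:7213924-7214173, minus strand: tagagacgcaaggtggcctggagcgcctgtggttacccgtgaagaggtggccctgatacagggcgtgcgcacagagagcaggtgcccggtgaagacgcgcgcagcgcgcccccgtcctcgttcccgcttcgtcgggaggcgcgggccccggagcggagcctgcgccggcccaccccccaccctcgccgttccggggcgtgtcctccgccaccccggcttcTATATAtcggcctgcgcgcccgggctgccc
Igfbp6, chr15:102143936-102144185, plus strand: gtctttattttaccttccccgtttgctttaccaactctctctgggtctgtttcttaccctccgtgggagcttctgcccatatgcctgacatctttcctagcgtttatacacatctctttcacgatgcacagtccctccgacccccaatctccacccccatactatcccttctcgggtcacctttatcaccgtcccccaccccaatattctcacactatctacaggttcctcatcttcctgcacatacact
Igfbp4, chr11:99040994-99041243, plus strand: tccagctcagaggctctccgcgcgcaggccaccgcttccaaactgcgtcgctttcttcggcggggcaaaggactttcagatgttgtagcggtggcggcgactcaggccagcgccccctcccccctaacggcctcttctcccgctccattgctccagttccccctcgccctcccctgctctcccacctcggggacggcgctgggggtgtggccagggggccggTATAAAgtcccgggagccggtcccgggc
Igfbp2, chr1:72824230-72824479, plus strand: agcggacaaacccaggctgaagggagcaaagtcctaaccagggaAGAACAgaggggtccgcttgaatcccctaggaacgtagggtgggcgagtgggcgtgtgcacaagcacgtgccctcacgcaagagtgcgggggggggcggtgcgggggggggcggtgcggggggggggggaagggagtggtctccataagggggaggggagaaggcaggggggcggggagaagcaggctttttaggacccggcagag

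The TATA box of *Igfbp3* starts 30 bases and that of *Igfbp4* 28 bases before the start, and the arm in *Igfbp2* 206 bases before it. The *Igfbp3* window is 73.2% G and C, that of *Igfbp4* 69.2%, that of *Igfbp2* 67.2% and that of *Igfbp6* 49.6%. These matches are descriptions of the letters and not sites of binding, and elements farther away were not searched. In the deposited tables, whose build is mm39 in the submitters' processing notes, *Igfbp3* (ENSMUSG00000020427) spans chr11:7156086-7163923 and *Igfbp6* (ENSMUSG00000023046) chr15:102052797-102057946. *Igfbp2* (ENSMUSG00000039323, chr1:72863662-72891633) and *Igfbp5* (ENSMUSG00000026185, chr1:72897091-72914043) are neighbours on opposite strands, with 5457 bases between them. *Igfbp4* (ENSMUSG00000017493) spans chr11:98932070-98945218.

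The same genes were then compared between the agonist and the antagonist at the same dose and time. In aldosterone- versus spironolactone-treated fibroblasts *Igfbp3*, *Igfbp6* and *Igf1r* were higher. Thus 3 of the 9 genes were called, against 8.88% of the 27631 genes in that table, and all 3 were higher, against 4.93%. *Igfbp3* was the only 1 of them past both thresholds, against 1.9%. When only genes with a mean of at least 10 were tested, 2571 of 15300 were called, and 4107 with the sample number in the fit. This comparison shares its 4 aldosterone libraries with the first, so the 2 are not independent. The level of *Igfbp3* was 27.5, 28.6, 34.1 and 35.4 CPM with spironolactone, and its log2 fold change was 1.22 (SE 0.078, adjusted p = 9.09e-09), a 2.32-fold difference that stayed past both thresholds without any of the 8 libraries in turn (1.16 to 1.28). *Igfbp6* had 152, 181, 159 and 151 CPM with spironolactone, and its log2 fold change was 0.76 (SE 0.062, adjusted p = 1.68e-07). All aldosterone libraries were above all spironolactone libraries for these 2 genes and for *Igf1r*, against 6.76% of all genes.

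*Igf1r* had 178, 158, 165 and 171 CPM with spironolactone, below every aldosterone library. Its log2 fold change against spironolactone was 0.26 (SE 0.058, adjusted p = 0.00814). The call held without any of the 8 libraries in turn (adjusted p 0.00833 to 0.0313). With the sample number in the fit 6 of the 9 genes passed, against 14.4% of all genes. *Igfbp2* (-0.30, adjusted p = 1.81e-06), *Igfbp4* (-0.16, 0.00990) and *Igfbp7* (0.24, 0.000260) were added. *Igfbp2* and *Igfbp7* kept their calls without any of the 8 libraries in turn in this fit. *Igfbp4* lost its call without aldosterone replicate 2 or spironolactone replicate 1 of sample number 2 (adjusted p 0.0636 and 0.0852). The ligand *Igf1* did not pass (0.14, 0.104), and it passed in this fit only without spironolactone replicate 2 of sample number 2 (0.0288).

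Spironolactone alone was compared with vehicle in the steroid-stripped medium. None of the 9 genes passed the test, and 0 of the 27598 genes in the table were called by limma, with 1251 at an unadjusted p under 0.05 and 13 genes called by DESeq2. The adjusted p of the 9 genes lay between 0.934 and 0.999. The 95% intervals of the log2 difference were -0.02 to 0.26 for *Igfbp6*, -0.22 to 0.24 for *Igfbp2* and -0.50 to 0.14 for *Igf1*. Those of *Igfbp3* (-0.39 to -0.002), *Igfbp4* (-0.26 to -0.01) and *Igf1r* (-0.23 to -0.006) lay below 0. These intervals are not adjusted for the number of genes. A difference of the size seen for *Igfbp3* with aldosterone is outside the interval of that gene. With the sample number in the fit, 0.351% of all genes passed, and *Igfbp5* was among them with a log2 fold change of -0.39 (SE 0.042, adjusted p = 4.51e-07). Its spironolactone libraries had 386, 360, 860 and 918 CPM, each lower than both vehicle libraries of its sample number. The call held in this fit without any of the 8 libraries in turn (adjusted p at most 3.32e-05), and within sample number 1 (-0.45, 0.000606) but not within sample number 2 (-0.32, 0.797).

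*Igfbp5*, a binding protein that attaches to extracellular matrix and is linked to muscle differentiation, varied more between sample numbers than with any treatment. Its level was 534, 485, 1065 and 1152 CPM with vehicle and 494, 490, 794 and 775 CPM with aldosterone. The libraries of sample number 2 were thus higher in every treatment. The log2 fold change of aldosterone versus vehicle was -0.28 (SE 0.238, adjusted p = 0.586, and 0.000596 with the sample number in the fit). In the latter fit it passed without any of the 8 libraries in turn (at most 0.0119). Within sample number 1 it was -0.05 (adjusted p = 0.701) and within sample number 2 it was -0.51 (adjusted p = 2.90e-05), each from 2 libraries a group. The difference of these effects was -0.46 (SE 0.080, unadjusted p = 6.43e-05), and its adjusted p was 0.259 over 27319 genes, of which 0.0146% were called. The adjusted p was 0.0419 when only genes with a mean of 10 or more were tested and 0.0417 with edgeR, and lay between 0.110 and 0.990 without each library in turn.

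Between aldosterone and spironolactone the effect on *Igfbp5* had opposite signs in the 2 sample numbers. It was 0.41 on the log2 scale within sample number 1, where aldosterone was higher (adjusted p = 0.000107), and -0.19 within sample number 2, where aldosterone was lower (adjusted p = 0.0362). The difference was -0.60 (SE 0.082, adjusted p = 0.0304, interaction term in limma over 27631 genes, of which 0.0145% were called). It passed without spironolactone replicate 1 of sample number 1 (0.0272) and did not pass without each of the other 7 libraries (0.0585 to 0.343). This test was added after the data were seen. None of the other 8 genes passed for such a difference between sample numbers in any of the 3 comparisons (adjusted p at least 0.895), and for spironolactone versus vehicle 0% of all genes were called.

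Over all 12 libraries, with treatment in the fit, 7 of the 9 genes differed between the sample numbers, against 12.9% of the 25133 genes tested (limma, an added comparison). *Igfbp5* was 2.02 times higher in sample number 2 (log2 difference 1.02, SE 0.057, adjusted p = 5.28e-14). *Igf1* (0.55, SE 0.043) and *Irs1* (0.55, SE 0.039) were also higher in sample number 2. For these 3 genes the 6 libraries of sample number 2 were all above the 6 of sample number 1, which held for 1.76% of all genes. *Igfbp3* was higher by 0.20, while *Igfbp2* (-0.40), *Igfbp7* (-0.31) and *Igfbp4* (-0.14) were lower in sample number 2. *Igf1r* (-0.03, adjusted p = 0.734) and *Igfbp6* (-0.05, adjusted p = 0.566) did not pass. The ligand and its adaptor thus differed by 1.47-fold between sample numbers. Neither passed for aldosterone versus vehicle on treatment only, and *Irs1* passed with the sample number in the fit. Some cell type markers also differed between sample numbers (adjusted p at most 6.16e-05, limma). *Myh11* (-1.01), *Rgs5* (-1.01), *Kdr* (-1.03) and *Thy1* (-0.50) were lower in sample number 2, and *Adipoq* (1.36) and *Lum* (0.72) higher. *Col1a1* (-0.01) and *Vim* (-0.06) did not pass. The part of these markers was not tested.

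**Figure D3:**
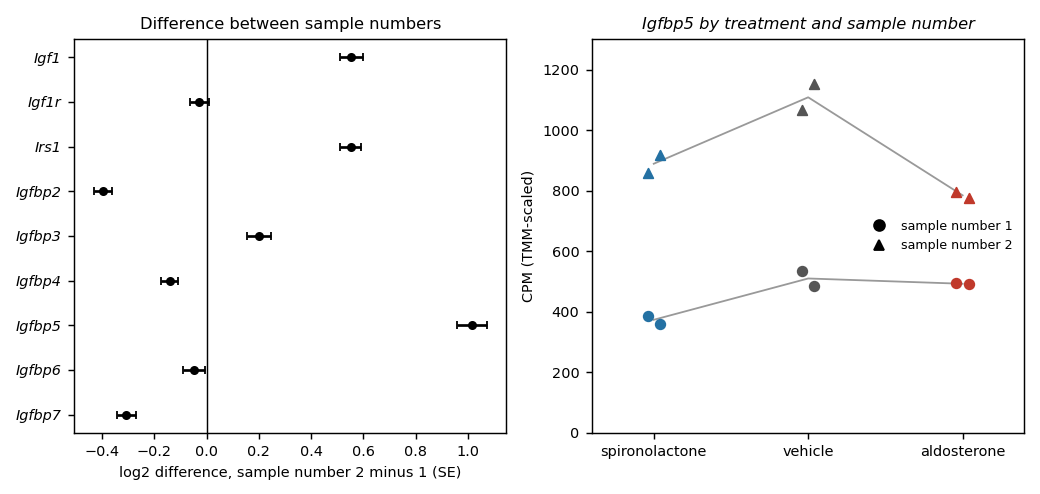
Left, the log2 difference between sample number 2 and sample number 1 (x axis, with its SE) for each gene over 12 libraries. Right, the level of *Igfbp5* (y axis, TMM-scaled CPM) in each library by treatment, circles for sample number 1 and triangles for sample number 2, with lines through the means. *Igfbp5* has the largest difference of the 9 genes, and its aldosterone level is below vehicle mainly in sample number 2.

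The 6 binding-protein transcripts were also set side by side as shares of their summed level per kilobase. This sum was 1339 ± 86.1 CPM per kilobase with vehicle, 1413 ± 100.1 with aldosterone and 1327 ± 102 with spironolactone (SD, n = 4 each), so the groups overlapped. *Igfbp6* held 9.89% ± 0.300 of the sum with vehicle, 17.3% ± 1.75 with aldosterone and 10.9% ± 0.347 with spironolactone. *Igfbp3* held 0.860% ± 0.135, 1.65% ± 0.148 and 0.763% ± 0.140. *Igfbp7* held 28.8% ± 2.42, 34.6% ± 1.63 and 31.2% ± 2.17. *Igfbp2* held 29.8% ± 2.99, 23.1% ± 2.48 and 30.4% ± 2.96. *Igfbp4* held 20.3% ± 0.404, 15.7% ± 0.538 and 18.7% ± 0.528. The shares of these 2 genes were thus lower with aldosterone, and that of *Igfbp4* was also lower with spironolactone than with vehicle. *Igfbp5* held 10.3% ± 4.94, 7.65% ± 2.49 and 8.11% ± 4.24. Since shares add up to the same total, a higher share of some members lowers those of others.

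**Figure D4:**
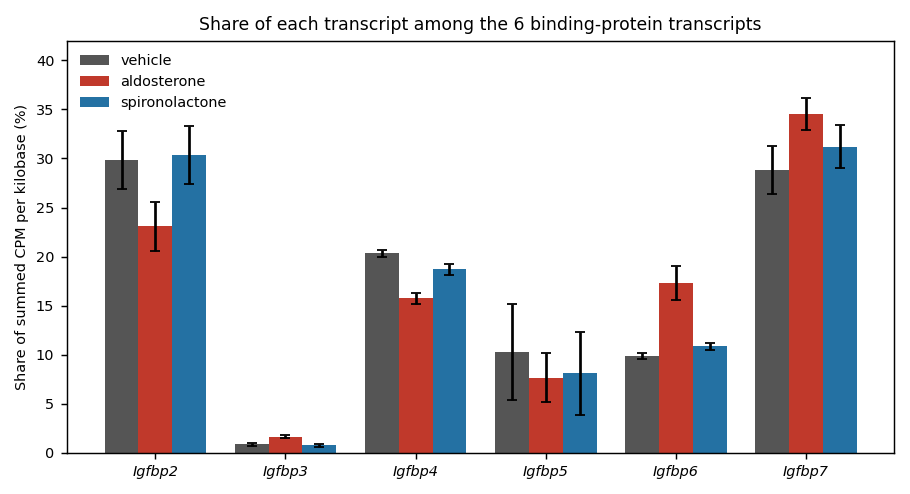
Share of each binding-protein transcript in the summed CPM per kilobase of the 6 (y axis, percent, starting at 0), by treatment. Bars are means of 4 libraries and error bars the SD. *Igfbp6* rises from 9.89% with vehicle to 17.3% with aldosterone, and *Igfbp2* and *Igfbp4* have smaller shares with aldosterone.

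The remaining genes of the pathway were counted from 8 lists by role, 59 genes in all, of which 56 were in the table of aldosterone and vehicle. Of these, 15 rose and 6 fell, or 37.5%, against 10.4% of all genes, with a median log2 fold change of -0.04. In the fit with the sample number 17 were higher and 10 lower, or 48.2%, against 16.7% of all genes. The shares of all genes include those with few reads. When only genes with a mean of at least 10 were tested, 3033 of 15245 were called, and 4753 with the sample number. Among the ligands and receptors, *Igf2* had a log2 fold change of 0.31 (SE 0.251, adjusted p = 0.565, and 0.0155 with the sample number), *Igf2r*, the receptor that clears IGF2 into lysosomes, fell by 0.42 (SE 0.069, adjusted p = 0.000521), and the insulin receptor gene *Insr* was at 0.07 (adjusted p = 0.679).

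Of the 8 lists, the proteases that cleave binding proteins and their inhibitors had the largest share called. Of 7 listed genes 5 were higher, against 5.68% of all genes, and 2 lower, against 4.74%. These shares of all genes include those with few reads. *Pappa2*, a protease of IGFBP3 and IGFBP5, rose by 0.72 (SE 0.077, adjusted p = 7.39e-06). *Stc1*, a stanniocalcin that inhibits pregnancy-associated plasma proteins, fell from a mean of 114 to 35.8 normalized counts, a log2 fold change of -1.64 (SE 0.182, adjusted p = 1.13e-05), and was the only gene of these lists past both thresholds. The other genes of this list are named with their values seen. *Adam12* (0.79), *Stc2* (0.49), *Htra1* (0.36) and *Ctsd* (0.22) rose and *Pappa* fell by 0.36, with adjusted p between 7.06e-05 and 0.0403. *Pappa* and *Stc2* overlapped between groups. Of the other 5 genes, 4 had all aldosterone libraries above all vehicle libraries, against 7.55% of all genes, and *Stc1* had all below, against 6.9%. Against spironolactone 4 of the 7 rose and 1 fell, where 8.88% of all genes were called. In the fit with the sample number all 7 were called, 5 higher and 2 lower, against 14.4% of all genes, with *Pappa* (-0.27, adjusted p = 0.000122) and *Stc2* (0.36, adjusted p = 0.0110) added. *Stc1* again had the largest fold change of the list (-1.39, adjusted p = 4.68e-05).

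Within the cell, 3 of 9 receptor adaptors and phosphatases rose and 1 fell, against 5.68% and 4.74% of all genes. The adaptor *Irs2* rose by 0.68 (SE 0.083, adjusted p = 3.12e-05), whereas *Irs1* passed only in the fit with the sample number, with a log2 fold change of -0.18, and *Grb14*, an inhibitor of insulin receptor signaling, fell by 0.23 (SE 0.059, adjusted p = 0.0187). In the arm of phosphoinositide 3-kinase and Akt 4 of 23 genes rose and 2 fell, against the same shares. *Pik3r3*, a regulatory subunit of the kinase, fell by 0.60 (SE 0.079, adjusted p = 5.86e-05) and the transcription factor *Foxo3* rose by 0.55 (SE 0.081, adjusted p = 0.000198). The regulatory subunit *Pik3r1*, named after its values were seen, rose by 0.82 against vehicle (SE 0.143, adjusted p = 0.000963) and by 1.08 against spironolactone (SE 0.139, adjusted p = 3.82e-05), where it and *Stc1* were the genes of these lists past both thresholds. In the arm of Ras and ERK, *Mapk3* rose by 0.17 (adjusted p = 0.0453). Of the 3 *Igf2* mRNA-binding proteins, *Igf2bp2* rose by 0.21 (adjusted p = 0.0151). In spironolactone- versus vehicle-treated fibroblasts 0 of the 57 listed genes passed by limma on treatment only, as for all genes of that table. In the fit with the sample number 1 of them passed, against 0.351% of all genes, and this was *Pik3r1*, which was lower with spironolactone by a log2 fold change of -0.26 (adjusted p = 0.00162).

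**Figure D5:**
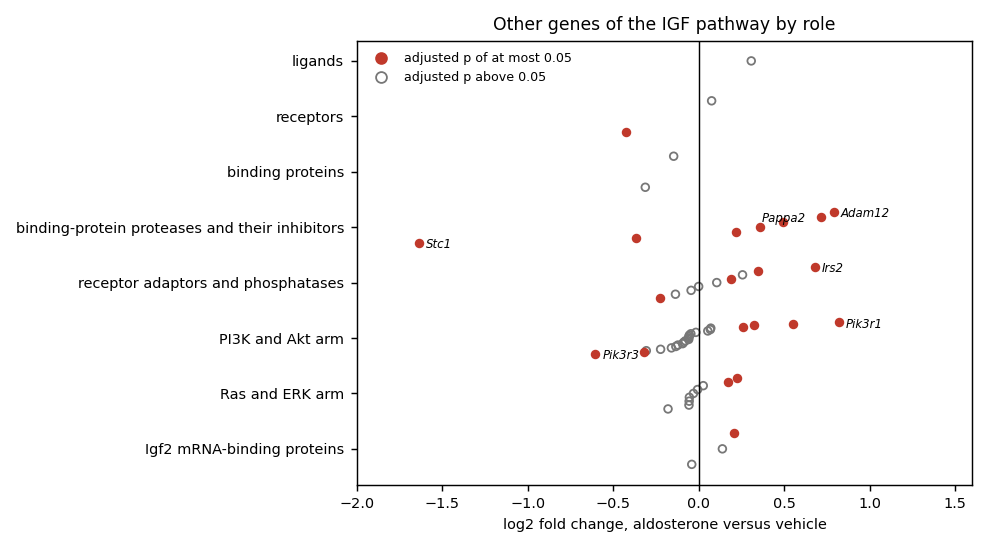
Log2 fold change of aldosterone versus vehicle (x axis) for the 56 other genes of the IGF pathway, by role (y axis). Filled points have an adjusted p of at most 0.05 in limma and open points do not, and genes with a change of at least 0.6 are named. All 7 points of the binding-protein proteases and their inhibitors are filled, with *Stc1* far to the left.

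The genes whose pattern was most like that of *Igfbp3* were taken by Pearson correlation of log2(CPM + 1) over the 12 libraries, among 11221 genes whose mean was 100 reads or more. These were *Tgfbr3*, a coreceptor of TGF-beta (r = 0.991), *Hp*, the hemoglobin-binding haptoglobin (r = 0.989), and *Pdgfra*, the receptor that marks fibro-adipogenic cells (r = 0.989). All libraries share their treatment groups and mice, so these values are descriptions. The mean level with vehicle, aldosterone and spironolactone was 102, 210 and 94.1 CPM for *Tgfbr3*, 5.13, 43.6 and 4.42 CPM for *Hp*, and 132, 249 and 123 CPM for *Pdgfra*.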

How the data were processed

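Poly(A) RNA of 12 fibroblast cultures was sequenced. The authors deposited 1 table per pair of treatments, holding normalized counts (signal values), that is, counts per gene over the size factor of the library. The tables also hold the authors' mean counts, DESeq2 fold changes (log2) and p-values, which were not used, and gene lengths. Per the submitters' processing notes, reads were aligned to mm39 with HISAT2 (version 2.0.5) and counted with featureCounts (version 1.5.0-p3), whereas the methods name mm9. The table positions of 0 of the 9 genes were within 100 bases of those in GRCm38.p6 or NCBIM37, so mm39 is named here as in the notes. Whether the counting used the strand is not given in the sources used here.

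The reads were recovered from the steps of 22 of the 24 library columns, where 100% of values were whole (tolerance 0.001), and for the other 2 columns from the other table of that library. Levels are CPM scaled by edgeR's TMM (version 4.0.16), and levels of different genes were compared per kilobase of gene length. Depth was 19136812 to 30219093 reads per library. Within each table limma (version 3.58.1, R 4.3.3) was fitted to log2(normalized count + 1) of all genes with a trend in the variance, and p-values were adjusted by Benjamini-Hochberg over the table. Genes with no reads or no residual variance in the libraries of a fit were left out of it. Fold changes on this scale understate those of low genes. The thresholds were an adjusted p of 0.05 and an absolute log2 fold change of 1. Libraries of the same sample number deviated together (24 of 24 pairs of libraries from different treatments with r above 0.1, mean 0.329, over 15313 genes), which was not so for the biological replicate number (12 of 24), so the sample number was taken to pair the libraries and fits with it are printed beside results they change. The pairing comes from the numbers in the labels and this check. Effects by sample number were tested by an interaction term. The fits were tested on simulated data. Alternatives were DESeq2 (version 1.42.0), edgeR and limma-voom on the recovered reads, a pseudocount of 0.5, a mean of at least 10, blocks, single sample numbers and leaving out each library.

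The 9 genes and the lists were chosen with earlier results of these data known. Named besides the 9 genes were, from each pathway list, the 2 genes with the smallest adjusted p among those of at most 0.05 and any past both thresholds, the 3 genes most like a member past both thresholds, and fixed markers and steroid response genes. *Igfbp1* and *Adam28* were not analysed here, and *Irs4* was analysed in the 2 comparisons with spironolactone. The result of 1 listed gene is not reported here.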

Additional observations from a re-analysis of the deposited data

Results flagged for a closer look

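The effect of aldosterone versus spironolactone on *Igfbp5* differed between the sample numbers by -0.60 on the log2 scale (sample number 2 minus sample number 1, SE 0.082, adjusted p = 0.0304 by an interaction term in limma). Aldosterone was higher than spironolactone by 0.41 in sample number 1 and lower by -0.19 in sample number 2. The adjusted p was 0.0518 with a pseudocount of 0.5, 0.00382 when genes with a mean under 10 were left out, and 0.00389 with edgeR. Without single libraries it lay between 0.0272 (without spironolactone replicate 1 of sample number 1, the only such case that passed) and 0.343. In 27 groups of 4 libraries, 9 genes in 3 treatments, 0 held a library set apart from the others by Dixon's ratio, with a largest ratio of 0.747, under the 95% critical value for 4 values. Chance alone would be expected to set about 1 in 20 groups apart if the 4 libraries were alike but for chance. Each group here holds 2 libraries of each sample number. Where these pairs lie far apart, the ratio is low and could hardly set a library apart. For *Igfbp5* it was 0.130 with vehicle, 0.0633 with aldosterone and 0.105 with spironolactone.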

How the results depend on the processing

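*Igfbp3*, *Igfbp4* and *Igfbp6* kept their direction and call for aldosterone versus vehicle under all 12 alternatives and without each of the 8 libraries, as did *Igfbp3*, *Igfbp6* and *Igf1r* for aldosterone versus spironolactone, and *Igfbp7* lost its call against vehicle with a block on the biological replicate number (adjusted p = 0.0542). The libraries paired by sample number, and that block raised the genes called for aldosterone versus vehicle from 2847 to 4563 (4753 when genes with a mean under 10 were also left out, and 4851 with edgeR) and the members called from 4 to 8 in all 3 cases. For aldosterone versus spironolactone the block raised the genes from 2454 to 3974 (4107 and 4118) and the members from 3 to 6 in all 3 cases, with 5 members called within sample number 1 and 7 within sample number 2. For spironolactone versus vehicle, where limma on treatment called 0 genes, 97 were called with the block (42 with the filter, 50 with edgeR), 2 of them past both thresholds, 13 with DESeq2, 19 within sample number 1 (3 past both thresholds) and 1 within sample number 2 (1 past both). *Igfbp5* was the 1 member called there with the block in all 3 cases and within sample number 1. The block changed no call of the 9 genes other than those given beside the results. Within sample number 2, 0 members passed both thresholds for aldosterone versus vehicle, and the *Igfbp5* log2 fold change against spironolactone turned to -0.19. The genes with an aldosterone effect that differed by sample number went from 4 to 2 with a pseudocount of 0.5, 11 without genes of a mean under 10, and 12 with edgeR.

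Leaving out single libraries gave 0 to 1 members past both thresholds for aldosterone versus vehicle, with and without the block, because *Igfbp3* lies near the fold threshold. For spironolactone versus vehicle it gave 0 to 3 genes called, and with the block 34 to 253 genes, 0 to 9 past both thresholds and 1 to 2 members. The fewest genes called with the block came without spironolactone replicate 2 of sample number 1 and the most without replicate 1 of it, where *Igfbp7* was also called (adjusted p = 0.0426). Members that did not pass the test changed sign: *Igf1* for aldosterone versus vehicle (-0.14 to 0.058), *Irs1* (-0.22 to 0.012) and *Igfbp5* (-0.12 to 0.34) for aldosterone versus spironolactone, and *Irs1* (-0.17 to 0.049) and *Igfbp2* (-0.086 to 0.095, and -0.029 to 0.042 with the block) for spironolactone versus vehicle. The cause of these changes was not tested. With 2 mice the results describe these libraries. At their depth of 19136812 to 30219093 reads the lowest value of the 9 genes was 27.5 CPM.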
